A study of Mus musculus with 9 samples.

Results

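The 9 genes described here encode receptors of the tumour necrosis factor (TNF) receptor superfamily: Tnfrsf25, Tnfrsf1a, Tnfrsf1b, Tnfrsf4, Tnfrsf9, Tnfrsf18, Tnfrsf10b, Cd27 and Fas. They were taken by gene symbol from an RNA-Seq matrix of 41388 genes, in which all 9 were found. The RNA came from murine Tc17 cells, that is CD8+ T cells polarised to produce IL-17. Naive CD62L+CD44- CD8+ T cells were sorted from C57BL/6 lymph nodes and spleens, from mice that were 8 to 12 weeks old according to the methods. In all groups they were activated with 5 µg/ml immobilised anti-CD3, 0.5 µg/ml anti-CD28 and 50 U/ml IL-2, and polarised with 0.5 ng/ml human TGF-β, 30 ng/ml IL-6 and 5 µg/ml anti-IFN-γ for 2 days. The solvent DMSO was at 0.2% in all groups as the labels were read here, alone in Ctrl, with 20 µM dimethyl fumarate in the DMF cultures, and with 20 µM DMF and 50 µM reduced glutathione (GSH) in the DMF + GSH cultures. Each group had 3 libraries, with replicate 1 in preparation batch 1 and replicates 2 and 3 in batch 2. The cells were thus activated and polarised in vitro and do not stand for a CD8+ T cell population of the animal. The comparison of Ctrl with DMF shows how receptor mRNA differed after DMF, and DMF + GSH shows how it differed when the thiol with which DMF reacts was supplied as well.

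TNF receptors are membrane proteins that bind trimeric ligands of the TNF family and pass the signal on through their cytoplasmic tails. The death receptors carry a death domain, through which adaptors such as TRADD and FADD are recruited and either NF-κB signalling or caspase-dependent cell death can follow. The costimulatory receptors lack this domain and bind TRAF adaptors, and on activated CD8+ T cells they are known to sustain proliferation, survival and cytokine production. Among the genes described here, Tnfrsf25 (DR3), Tnfrsf1a (TNFR1), Tnfrsf10b (the murine TRAIL receptor DR5) and Fas encode death receptors, whereas Tnfrsf9 (4-1BB), Tnfrsf4 (OX40), Tnfrsf18 (GITR), Tnfrsf1b (TNFR2) and Cd27 encode receptors without a death domain.

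All 9 are protein-coding genes in the GRCm38 annotation, and 5 of them lie on chromosome 4. Tnfrsf4 (ENSMUSG00000029075, chr4:156013843-156016612) and Tnfrsf18 (ENSMUSG00000041954, chr4:156026164-156028895), both on the plus strand, are 9551 bases apart with 0 protein-coding genes between them. Tnfrsf1b (ENSMUSG00000028599, chr4:145213463-145246870, minus strand), Tnfrsf9 (ENSMUSG00000028965, chr4:150914562-150946102, plus strand) and Tnfrsf25 (ENSMUSG00000024793, chr4:152115934-152120119, plus strand) lie farther from their neighbours. Cd27 (ENSMUSG00000030336, chr6:125232622-125237010, minus strand) and Tnfrsf1a (ENSMUSG00000030341, chr6:125349362-125362484, plus strand) are 112351 bases apart, with the lymphotoxin β receptor gene Ltbr among the 3 protein-coding genes between them. Tnfrsf10b (ENSMUSG00000022074, chr14:69767472-69784411) and Fas (ENSMUSG00000024778, chr19:34290666-34327772), both on the plus strand, are the other two.

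Promoter sequences of Tnfrsf25, Fas and Tnfrsf9 are shown because Tnfrsf25 and Fas had the largest decreases with DMF and Tnfrsf9 had the smallest p adj among the receptors that rose. They were taken from RefSeq (build GRCm38.p6), run 5′ to 3′ on the plus strand. The 3 longer ones end at the base before an annotated start site, and the 30-base one runs from 48 to 19 bases before it. Tnfrsf25 is given by chr4:152115684-152115933 before its first RefSeq start site, and Fas by chr19:34290409-34290658. Tnfrsf9 is given by chr4:150919905-150920154 before its first RefSeq start site. Before its second it is given by 30 bases, chr4:150927951-150927980, where part of the window is exonic in another annotated transcript. Tnfrsf25 has a second RefSeq window as well, chr4:152116093-152116342, which is not shown. Capitals mark matches to the motifs described next.
Tnfrsf25: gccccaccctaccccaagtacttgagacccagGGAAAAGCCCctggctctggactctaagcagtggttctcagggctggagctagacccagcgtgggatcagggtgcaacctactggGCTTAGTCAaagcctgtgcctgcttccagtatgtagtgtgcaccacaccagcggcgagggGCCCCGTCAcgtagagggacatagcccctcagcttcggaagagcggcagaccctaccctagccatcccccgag
Fas: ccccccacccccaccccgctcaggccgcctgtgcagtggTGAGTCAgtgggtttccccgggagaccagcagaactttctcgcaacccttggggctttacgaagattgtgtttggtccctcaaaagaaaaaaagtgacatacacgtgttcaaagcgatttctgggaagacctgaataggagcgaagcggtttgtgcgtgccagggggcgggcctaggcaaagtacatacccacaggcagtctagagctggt
Tnfrsf9, first start site: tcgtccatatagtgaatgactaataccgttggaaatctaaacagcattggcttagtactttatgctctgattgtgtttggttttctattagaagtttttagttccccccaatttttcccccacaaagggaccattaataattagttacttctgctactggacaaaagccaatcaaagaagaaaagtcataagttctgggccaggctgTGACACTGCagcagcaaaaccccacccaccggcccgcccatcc
Tnfrsf9, second start site: cagctGGGGATTTCCcaggaggccctgctc

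The 250 bases before the start site were searched on both strands for 5 motifs, chosen after the values had been seen: an NF-κB motif (GGG, NN and TTTCC in a row, N being any base), a FOXO motif (GTAAACA), an AP-1 motif (TGANTCA), a T-box motif (TCACACC) and an antioxidant response element (TGACNNNGC, which can overlap the AP-1 motif). RefSeq windows were found for 8 of the 9 genes, 10 windows in all, and 4 of these held a match. The NF-κB motif occurred 43 to 34 bases before the second Tnfrsf9 start site. On the opposite strand, it occurred 218 to 209 bases before the first Tnfrsf25 start site. Of the 32851 promoter windows in the table, 1.41% held it. The AP-1 motif (6.75% of windows) lay 15 to 9 bases before the second Tnfrsf9 start site and 211 to 205 bases before that of Fas. The antioxidant response element (10.2% of windows) lay 43 to 35 bases before the first Tnfrsf9 start site. On the opposite strand, it lay at 133 to 125 and 73 to 65 bases before the first Tnfrsf25 start site. The FOXO and T-box letters (3.17% and 3.33% of windows) were found in 0 of the 10 windows. Tnfrsf25 and Tnfrsf9, which moved in opposite directions with DMF, thus both held NF-κB and antioxidant response element letters. For Tnfrsf25 this was so before the first start site only, as the window before the second held 0 matches. These matches describe letters in the sequence and say nothing about binding.

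The libraries held between 7671772 and 14511926 reads assigned to genes, and Ctrl replicate 3 was the shallowest. Values are given as normalized counts, that is reads per gene divided by a library factor. The T cell markers Cd8a, Cd8b1, Cd3d, Cd3e and Cd3g summed to 21456 to 28119 in all libraries, but not in parallel, since Cd8a rose with DMF (log2FC 0.31) and Cd3g (-0.53), Cd3d (-0.34) and Cd3e (-0.23) fell. Cd4 lay between 0 and 4.40. The Tc17 markers Il17a, Il17f, Il23r and Ccr6 summed to 2961 to 4623 in Ctrl, 771 to 1997 in the DMF group and 3051 to 5055 with DMF + GSH. Myeloid markers stood apart in Ctrl replicate 3, where Lyz2 was at 119, as compared to 0 to 10.6 in the others. B cell markers summed to 58.1 to 92.0 and NK cell markers to at most 4.16. Gene by gene, DMF was compared with Ctrl in a linear model on log2(normalized count + 1) that paired the libraries by replicate number. Genes were called changed at an adjusted p (p adj) under 0.01, and log2FC and folds refer to this scale. The sample labels do not say whether replicates were separate cultures or animals. The study describes its replicates in general as independent biological ones and its data as combined from several experiments, without tying a replicate number of these libraries to a culture or animal, so p-values measure the spread between these samples. In bulk RNA, fewer cells that express a receptor and less mRNA per cell cannot be told apart.

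Per length, the receptors spanned a wide range of levels. In Ctrl, Tnfrsf9 stood first with 1252 ± 98.5 normalized counts per kb of exon (SD, n = 3), followed by Cd27 with 959 ± 157 and Tnfrsf1b with 576 ± 57.6. Tnfrsf4 (356 ± 73.8) and Tnfrsf18 (298 ± 29.3) came next, and their libraries overlapped. Tnfrsf1a (175 ± 28.6), Fas (153 ± 22.7) and Tnfrsf25 (131 ± 27.2) formed a lower tier in which each overlapped the next in order. Tnfrsf10b was lowest with 22.2 ± 2.55, and the level of Tnfrsf9 was 56.4 times that of Tnfrsf10b. With DMF, Tnfrsf9 rose to 2064 ± 86.5 per kb, Cd27 (772 ± 148) and Tnfrsf1b (736 ± 56.8) came to overlap, and Tnfrsf25 fell to the last place with 34.6 ± 11.6, overlapping Tnfrsf10b at 37.5 ± 5.60. In every group, the 5 receptors without a death domain filled the first 5 places and the 4 death receptors the last 4. In DMF + GSH, the order was that of Ctrl except that Tnfrsf18 (300 ± 26.1) and Tnfrsf4 (296 ± 63.1) changed places, while their libraries overlapped.

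**Figure D1:**
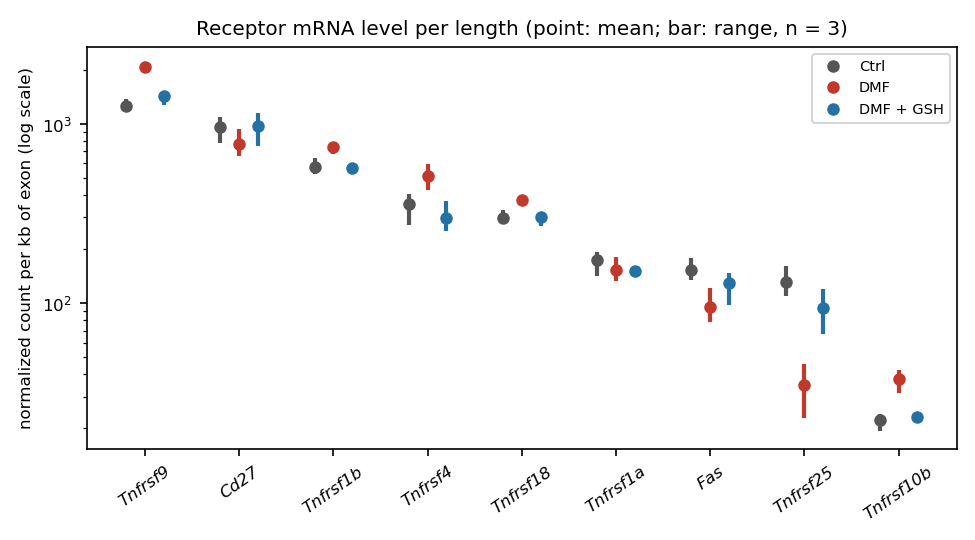
Level of each receptor mRNA in normalized counts per kb of exon (y axis, log scale), with the receptors ordered by their Ctrl mean and the 3 groups in grey (Ctrl), red (DMF) and blue (DMF + GSH). Points are means and bars run from the lowest to the highest of 3 libraries. Tnfrsf9 is highest in each group, and the red point of Tnfrsf25 drops to the level of Tnfrsf10b.

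DMF was accompanied by changes in 8 of the 9 receptors. Tnfrsf9, Tnfrsf4, Tnfrsf18, Tnfrsf1b and Tnfrsf10b rose, Tnfrsf25, Fas and Cd27 fell, and Tnfrsf1a was not called. The background was high, since 33.2% of the 11599 genes tested were called in either direction, 17.6% as higher and 15.6% as lower with DMF, while 41.3% had groups that did not overlap. The median log2FC was 0.33 over the receptors and 0.01 over all genes tested. For 7 of the 9 receptors the 3 DMF libraries did not overlap the 3 Ctrl libraries, the exceptions being Tnfrsf1a and Cd27. All 9 had the same sign of difference in the 3 replicate numbers. The share of all genes with the same sign was not counted. Same signs were common in the gene lists examined below. They were found for 8 of 11 other receptors, 8 of 9 ligands, 16 of 22 adaptors and regulators and 10 of 14 NF-κB components. By role, 4 of the 5 receptors without a death domain rose and 1 fell, whereas among the 4 death receptors 1 rose, 2 fell and 1 was not called.

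**Figure D2:**
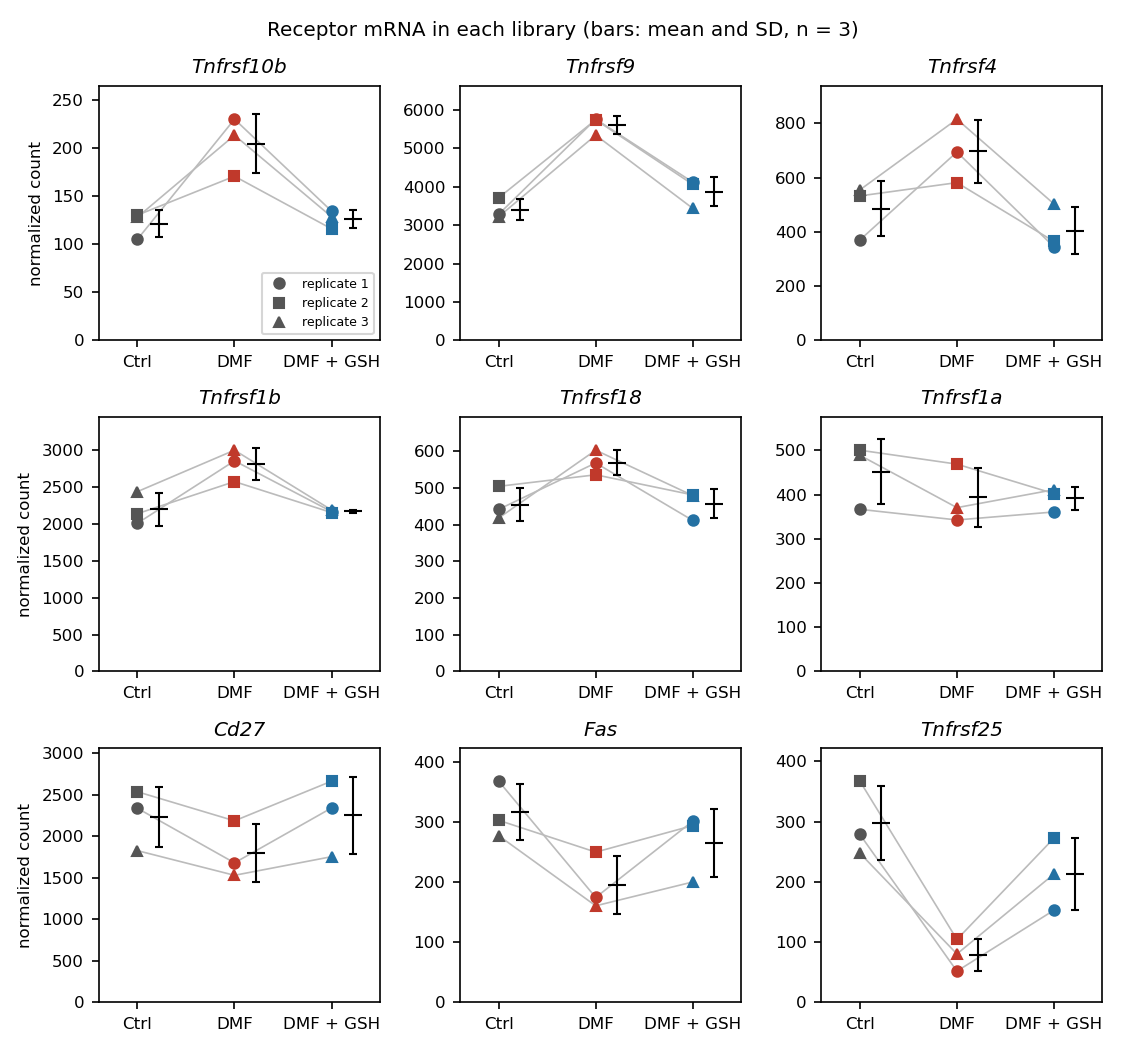
Normalized counts of each receptor (y axis, from 0) in Ctrl, DMF and DMF + GSH. Symbols mark the replicate number, grey lines join libraries of the same number, and the black bars give the mean and SD of 3 libraries. Tnfrsf10b, Tnfrsf9, Tnfrsf4, Tnfrsf1b and Tnfrsf18 peak with DMF, whereas Tnfrsf25, Fas and Cd27 are lowest with DMF.

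Tnfrsf25 showed the largest difference among the 9 receptors. DR3, its product, binds TL1A and costimulates activated and regulatory T cells. Its normalized counts in replicates 1, 2 and 3 were 279, 367 and 247 in Ctrl, 51.8, 104 and 80.3 in the DMF cultures and 153, 272 and 213 when GSH was added. Every DMF library lay below every library of the other two groups, and the DMF + GSH libraries overlapped Ctrl at its lower end. Tnfrsf25 was 3.83-fold lower with DMF than in Ctrl (log2FC -1.94, SE 0.137, p adj 5.05e-09), and 2.71-fold higher with DMF + GSH than with DMF (log2FC 1.44, p adj 2.11e-07). Against Ctrl, DMF + GSH differed by a log2FC of -0.50 with a 95% confidence interval of -0.79 to -0.21, and by -0.30 without Ctrl replicate 1 and -0.32 without replicate number 1. The sign was the same in all 3 replicate numbers, but among all genes this difference was not called (unadjusted p 0.00173, p adj 0.383).

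Fas, which triggers caspase-dependent death when bound by Fas ligand and limits T cell responses, was the other death receptor that fell. It was at 368, 303 and 277 normalized counts in Ctrl, at 175, 250 and 161 in the DMF cultures and at 301, 294 and 200 with DMF + GSH. DMF libraries lay below all Ctrl libraries, whereas DMF + GSH overlapped both groups. Fas was 1.64-fold lower with DMF than in Ctrl (log2FC -0.71, SE 0.125, p adj 0.000140) and 1.36-fold higher with DMF + GSH than with DMF (log2FC 0.44, p adj 0.00786). The latter call was not stable, since it was lost in 6 of the 12 fits that left out a library or a replicate number and with DESeq2 (p adj 0.0161). Without DMF replicate 1 the log2FC was 0.27, and without the whole replicate number 1 it was 0.27 as well.

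Tnfrsf10b encodes DR5, which binds TRAIL and was the death receptor that rose. Its counts were 105, 130 and 128 in Ctrl, 230, 170 and 213 in the DMF cultures and 134, 116 and 128 with DMF + GSH. DMF libraries exceeded all others, and the other two groups overlapped. The increase with DMF was 1.68-fold (log2FC 0.75, SE 0.136, p adj 0.000198), and with DMF + GSH the level was 1.61-fold lower than with DMF (log2FC -0.68, p adj 0.000525). Without replicate number 3 the latter difference was no longer called (p adj 0.0121). DMF + GSH and Ctrl differed by 0.06 on the log2 scale, with an interval of -0.22 to 0.35. This value was -0.10 without Ctrl replicate 1 and 0.21 without Ctrl replicate 2.

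Tnfrsf1a, the TNF receptor that most tissues express, was not called in any comparison. It was at 367, 501 and 489 in Ctrl, at 343, 469 and 371 in the DMF cultures and at 361, 402 and 411 with DMF + GSH, and the 3 groups overlapped. Its log2FC was -0.20 with DMF (interval -0.39 to -0.01, p adj 0.0827; -0.11 without DMF replicate 3, -0.10 without replicate number 3) and 0.00 between DMF + GSH and DMF (interval -0.19 to 0.19).

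Among the costimulatory receptors, Tnfrsf9 rose most. 4-1BB is induced by T cell receptor signalling and marks recently activated CD8+ T cells. Normalized counts were 3285, 3714 and 3221 in Ctrl, 5761, 5745 and 5345 in the DMF cultures and 4120, 4062 and 3439 with DMF + GSH. DMF libraries exceeded all others, while DMF + GSH overlapped Ctrl only through its replicate 3. The rise with DMF was 1.65-fold (log2FC 0.72, SE 0.0555, p adj 1.30e-08), and the level was 1.45-fold lower with DMF + GSH than with DMF (log2FC -0.54, p adj 4.73e-07). DMF + GSH was above Ctrl in all 3 replicate numbers (log2FC 0.18, interval 0.07 to 0.30), which was not called among all genes (unadjusted p 0.00384, p adj 0.544). Without replicate number 1 this log2FC was 0.11.

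Tnfrsf4 encodes OX40, which prolongs survival of activated T cells. It was at 370, 532 and 555 in Ctrl, at 694, 581 and 815 in the DMF cultures and at 344, 365 and 503 with DMF + GSH. DMF libraries lay above both other groups, but replicate 2 exceeded its Ctrl by only 0.13 on the log2 scale. The rise with DMF was 1.44-fold (log2FC 0.53, SE 0.105, p adj 0.000428) and was not called without replicate number 1 (log2FC 0.34, p adj 0.0138) or without replicate number 3 (p adj 0.0115). With DMF + GSH, Tnfrsf4 was 1.73-fold lower than with DMF (log2FC -0.79, p adj 8.47e-06), the largest decrease of the 9 receptors in this comparison, and lay 0.26 below Ctrl on the log2 scale (log2FC -0.26, interval -0.48 to -0.04, p adj 0.820). The latter value was not steady, with -0.09 when Ctrl replicate 2 was left out, -0.12 without replicate number 2 and -0.40 without Ctrl replicate 1.

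Tnfrsf18, the neighbour of Tnfrsf4, encodes GITR, a costimulatory receptor that is abundant on regulatory T cells. Its counts were 442, 504 and 418 in Ctrl, 568, 536 and 603 in the DMF cultures and 411, 481 and 479 with DMF + GSH, and only the DMF group stood apart. The rise with DMF was 1.25-fold (log2FC 0.33, SE 0.0870, p adj 0.00498), and the level was 1.25-fold lower with DMF + GSH than with DMF (log2FC -0.32, p adj 0.00676). The rise was lost with DESeq2 (p adj 0.0157) and in 6 of the 12 fits with samples left out, among them those without Ctrl replicate 1 (p adj 0.0150) or 3 (0.0629) and those without the DMF library of replicate 1 (0.0371) or 3 (0.0486). The call of a lower level with DMF + GSH was lost with DESeq2 as well (p adj 0.0158) and in 7 of these 12 fits. The antisense gene Gm16008 shares 414 exon bases (27.2%) with Tnfrsf18, and as the library kit does not mark strand, their reads cannot be told apart there. The mean normalized count of Gm16008 was 4.92.

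Tnfrsf1b, which encodes the TNF receptor TNFR2 of lymphocytes, was at 2011, 2141 and 2440 in Ctrl, at 2858, 2576 and 3002 in the DMF cultures and at 2170, 2156 and 2191 with DMF + GSH. DMF libraries lay above all others, whereas those of DMF + GSH fell within the Ctrl range. Tnfrsf1b rose 1.28-fold with DMF (log2FC 0.36, SE 0.0604, p adj 9.22e-05) and was 1.29-fold lower with DMF + GSH than with DMF (log2FC -0.37, p adj 7.66e-05). TNFR2 mRNA thus rose with DMF, while TNFR1 mRNA was not called.

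Cd27, a receptor of naive and memory T cells that binds CD70, was at 2335, 2534 and 1826 in Ctrl, at 1679, 2185 and 1529 in the DMF cultures and at 2339, 2662 and 1753 with DMF + GSH. Here the groups overlapped, as the replicate numbers differed more from each other than the treatments did, and the call rests on the pairing. Within replicate numbers the difference between DMF and Ctrl was -0.48, -0.21 and -0.26 on the log2 scale. Cd27 was 1.24-fold lower with DMF than in Ctrl (log2FC -0.32, SE 0.0610, p adj 0.000346) and 1.25-fold higher with DMF + GSH than with DMF (log2FC 0.32, p adj 0.000348). In the model with the batch term in place of the pairing, it was not called (p adj 0.218 and 0.226).

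**Figure D3:**
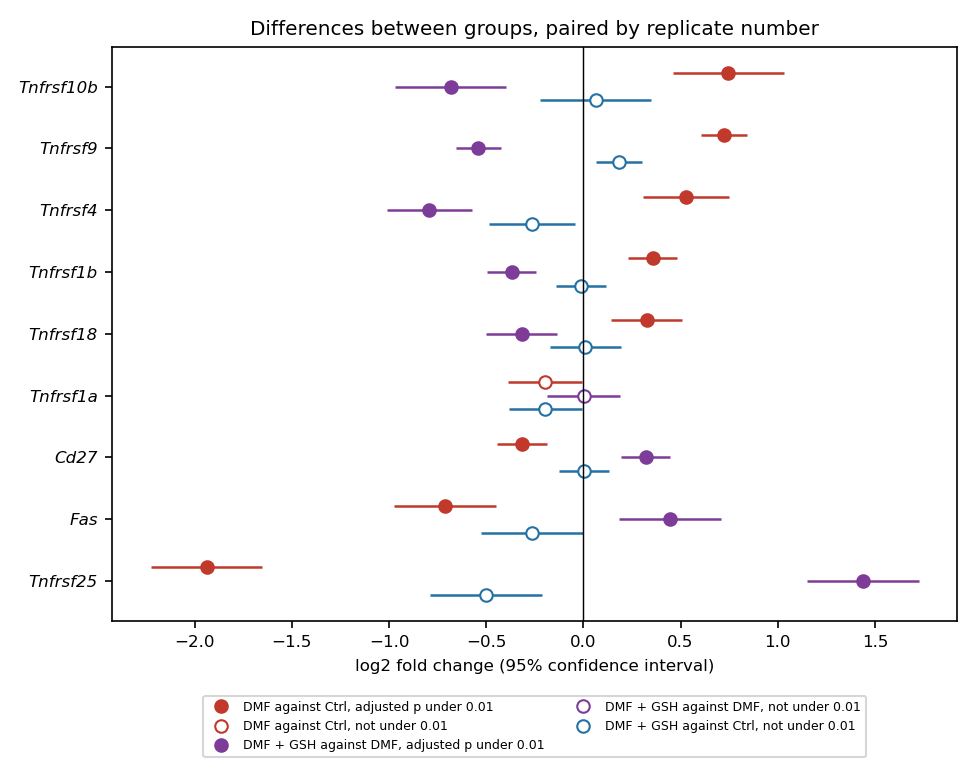
log2 fold changes (x axis) of the 9 receptors with 95% confidence intervals for DMF against Ctrl (red), DMF + GSH against DMF (purple) and DMF + GSH against Ctrl (blue), with filled points where p adj was under 0.01. Red and purple points lie on opposite sides of 0 for the 8 receptors called, and the 9 blue points are all open.

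With DMF + GSH, the 8 receptors called with DMF differed from the DMF cultures in the opposite direction. Between DMF + GSH and DMF, 3 receptors were higher, 5 were lower and Tnfrsf1a was not called, and in 6 of the 9 the groups did not overlap. Of all genes tested, 29.2% were called in this comparison, 13.7% as higher and 15.6% as lower, and 38.3% had groups that did not overlap. Since both comparisons use the same DMF libraries, opposite signs in them are not independent of each other. DMF + GSH and Ctrl were compared directly to see what difference was left. By limma, 0 of the 9 receptors were called, as compared to 0.0259% of all genes (3 genes), and the groups overlapped for all 9, whereas 4.47% of all genes had groups that did not. At an unadjusted p under 0.05, 5 receptors differed (Tnfrsf25, Tnfrsf1a, Tnfrsf4 and Fas lower, Tnfrsf9 higher), while 5.16% of all genes did. Counts at that level were 5 with edgeR (626 of all genes, beside 599 with limma), 4 with voom (632) and 3 with DESeq2 (284). With any of these tools, 0 receptors were called. The limma model with the batch term and no pairing had 1 receptor and 222 genes at that level.

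The size of the difference between DMF and Ctrl varied with the replicate number. Replicate 1, the batch 1 pair, had the largest difference for 7 of the 8 receptors called, and for 58.3% of all genes called. For Tnfrsf25 the differences were -2.40, -1.80 and -1.61 on the log2 scale in replicates 1, 2 and 3. For Fas they were -1.07, -0.28 and -0.78, and for Tnfrsf10b 1.12, 0.39 and 0.73. Tnfrsf9 was steadier with 0.81, 0.63 and 0.73. Replicate 2 had the smallest difference for 7 of the 8 receptors, whereas this was so for 35.4% of all genes called. The mean difference within batch 2 had the same sign as that of batch 1 for all 9 receptors, for example -1.71 for Tnfrsf25, 0.68 for Tnfrsf9, 0.34 for Tnfrsf4 and -0.53 for Fas.

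**Figure D4:**
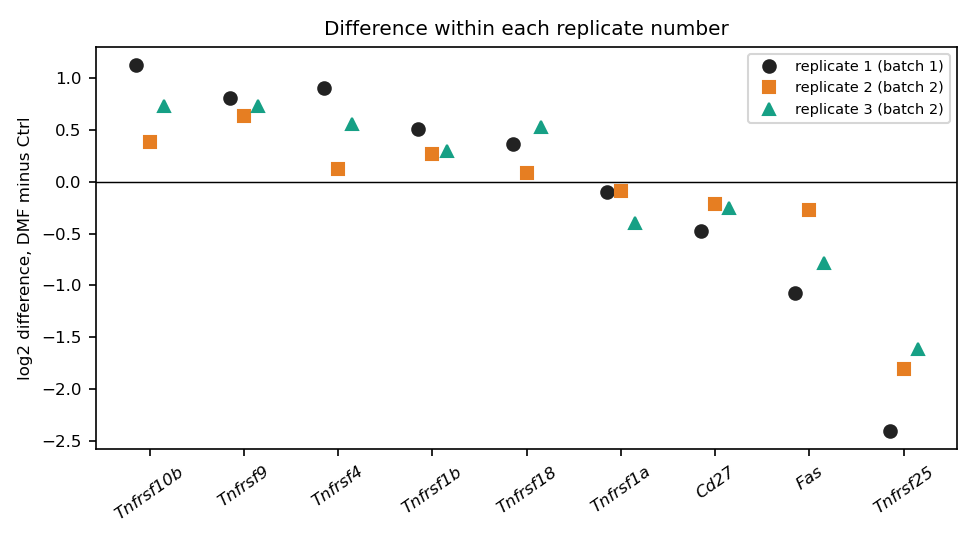
Difference between DMF and Ctrl on the log2 scale (y axis) within each replicate number for the 9 receptors, with circles for replicate 1 (batch 1) and squares and triangles for replicates 2 and 3 (batch 2). Each receptor keeps its sign in the 3 replicate numbers, and the circle is farthest from 0 for 7 of the 8 receptors called.

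The pairing decided most of the calls. With the study's batch term and no pairing, Tnfrsf25, Tnfrsf9 and Tnfrsf10b were still called between DMF and Ctrl, whereas Tnfrsf1b (p adj 0.0148), Fas (0.0267), Tnfrsf18 (0.0327), Tnfrsf4 (0.0389) and Cd27 (0.218) were not. Between DMF + GSH and DMF, Tnfrsf25 alone was called in that model (p adj 0.00774). Of all genes tested, the same model called 7.19% between DMF and Ctrl and 0.819% between DMF + GSH and DMF.

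A regulatory T cell marker differed between the groups as well. Foxp3, the regulatory T cell factor that TGF-β induces, was at 796, 559 and 913 in Ctrl, at 2456, 1035 and 2325 in the DMF cultures and at 578, 463 and 935 with DMF + GSH. It rose with DMF (log2FC 1.29, p adj 1.06e-07) and was lower with DMF + GSH than with DMF (log2FC -1.52, p adj 2.88e-08). The markers Cd4, Zbtb7b, Foxp3 and Ikzf2 summed to 731 to 1064 in Ctrl, 1221 to 2600 in the DMF cultures and 631 to 1069 with DMF + GSH. Foxp3 made up most of this sum, so that the sum mainly repeats its values. Cd4 was near 0, and Ikzf2 (log2FC 0.22, p adj 0.401) and Zbtb7b (log2FC 0.28, p adj 0.239) were not called with DMF. Tnfrsf4, Tnfrsf18, Tnfrsf9 and Tnfrsf1b, which regulatory T cells are known to express, moved with Foxp3, whereas Tnfrsf25, which they also express, moved the other way. Of the other receptors called, Cd27 and Fas moved against Foxp3 as well, and Tnfrsf10b moved with it. The part of such cells in these changes was not tested. Myeloid markers (Lyz2, Csf1r, Cd14, Adgre1 and Mpo) summed to 6.24 to 228 in Ctrl, 6.35 to 23.2 in the DMF cultures and 16.5 to 17.8 with DMF + GSH. Without Ctrl replicate 3, which held the highest of these sums, 7 of the 9 receptors were called with DMF and Tnfrsf18 was lost. The fits with samples left out, this one included, called 2702 to 4043 of all genes with DMF, beside 3848 in the main model.

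The ligands of these receptors were examined in the same libraries. Of 18 ligand genes, 9 passed the minimum mean of 10 normalized counts, and 4 rose and 2 fell with DMF (66.7% of those tested, beside 33.2% of all genes), with a median log2FC of 0.37. Lta, whose product lymphotoxin α binds TNFR1 and TNFR2, rose most, from 259 ± 44.1 in Ctrl to 1239 ± 639 with DMF (range 569 to 1842, log2FC 2.11, p adj 2.98e-08), and was at 229 ± 93.5 with DMF + GSH. Tnfsf10 (TRAIL), the ligand of DR5, rose together with its receptor (log2FC 0.71, p adj 3.55e-07), as did Tnfsf4 (OX40 ligand, log2FC 0.92, p adj 0.000165). Tnfsf11 (RANKL) rose by 0.90 on the log2 scale. Ltb, the lymphotoxin β chain, and Tnfsf8 (CD30 ligand) fell, with log2FC of -0.57 and -0.46. Tnf was not called with DMF (log2FC 0.37, p adj 0.0388) but was lower with DMF + GSH than with DMF (log2FC -0.78, p adj 0.000180). Tnfsf9, the ligand of 4-1BB, was not called (log2FC -0.32, p adj 0.241). The remaining ligands of the described receptors were too low to test: Fasl had mean normalized counts of 3.26, 12.8 and 5.64 in Ctrl, DMF and DMF + GSH, and Cd70, Tnfsf15 (TL1A) and Tnfsf18 (GITR ligand) were below 1 in each group.

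Among 19 other receptors of the superfamily, 11 passed the minimum, 2 rose and 3 fell with DMF, and the median log2FC was 0.19. This is 45.5% of those tested, beside 33.2% of all genes, and the count fell from 5 to 2 when the Ctrl or the DMF library of replicate 1, or that whole replicate number, was left out, and to 3 without replicate number 3. Tnfrsf21 (DR6, a death receptor) rose from 37.5 ± 7.71 to 77.2 ± 13.3 (log2FC 1.03, p adj 0.00104), and Tnfrsf13b (TACI) rose slightly (log2FC 0.24, p adj 0.00512). Tnfrsf13c (BAFF receptor) fell from 49.4 ± 18.5 to 22.8 ± 0.999 (log2FC -1.02, p adj 0.00161), Tnfrsf14 (HVEM) fell by 0.60 and Tnfrsf26 by 0.40 on the log2 scale. Tnfrsf11a (RANK), which was singled out after its values were seen, reached the minimum only through the DMF group, with means of 9.22 in Ctrl, 23.9 with DMF and 3.34 with DMF + GSH, and was not called (log2FC 1.38, p adj 0.0163). Without it, 5 of 10 other receptors were called and the median log2FC was 0.14.

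Downstream of the receptors, all 22 adaptors and regulators passed the minimum, with 2 higher, 6 lower and a median log2FC of 0.04. Traf4 (log2FC 0.44) and the ubiquitin ligase Traf6 (0.38) rose. Map3k5 (ASK1, a redox-sensitive kinase) fell most (log2FC -0.84, p adj 1.02e-08), followed by Tnfaip3 (A20, an inhibitor of NF-κB signalling, log2FC -0.69), Birc2 (cIAP1, -0.40), Tnip1 (an A20 partner, -0.35), the deubiquitinase Cyld (-0.32) and Traf1 (-0.29). For Traf6, Tnfaip3, Birc2, Tnip1 and Traf1 the DMF libraries overlapped those of Ctrl. Tnfaip3 spread widely, from 656 to 2569 normalized counts in Ctrl and from 517 to 1241 with DMF. Of 14 NF-κB components, 2 rose and 3 fell, with a median log2FC of -0.14. Nfkb1 (0.35) and Nfkb2 (0.22), which encode the precursors p105 and p100, rose. Bcl3, an atypical IκB protein, fell by 0.76, Map3k14 (NIK) by 0.39 and Nfkbia (IκBα) by 0.33 on the log2 scale. The share called was 36.4% of the adaptors and regulators and 35.7% of the NF-κB components, close to the 33.2% of all genes, so that these counts do not set either list apart. Of the NF-κB components, 3 instead of 5 were called without Ctrl replicate 2 and without replicate number 3, and 2 without replicate number 2. With the batch term and no pairing, 0 other receptors, 3 ligands, 2 adaptors and regulators and 1 NF-κB component were called with DMF, out of 11, 9, 22 and 14 tested, while 7.19% of all genes were called in that model.

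Between DMF + GSH and DMF, 2 other receptors, 2 ligands, 6 adaptors and regulators and 2 NF-κB components were higher, and 3, 5, 2 and 3, respectively, were lower. The shares called were 45.5%, 77.8%, 36.4% and 35.7%, beside 29.2% of all genes. The lower other receptors include Tnfrsf11a, which had to be high with DMF to be tested, and without it 4 of 10 were called (40.0%). With the batch term and no pairing, 0 genes of each of the 4 lists and 0.819% of all genes (95 genes) were called in this comparison by limma, and the counts of the paired model depended on single libraries. Without DMF replicate 1 they fell to 2, 4, 4 and 3, and without DMF + GSH replicate 3 those of other receptors, ligands and NF-κB components fell to 2, 4 and 2. Without DMF replicate 3, 3 other receptors and 3 NF-κB components were called, without DMF + GSH replicate 1, 3 other receptors and 5 adaptors and regulators, and without DMF + GSH replicate 2, 3 other receptors. Among the ligands Lta was lower by the most (log2FC -2.35, p adj 1.74e-08), and among the adaptors and regulators Tnfaip3 was the most increased (log2FC 0.79, p adj 1.49e-05). For Tnfaip3 the groups overlapped, with 517 to 1241 normalized counts with DMF and 780 to 2216 with DMF + GSH. By limma, 0 genes of the 4 lists were called between DMF + GSH and Ctrl, and the same held with edgeR, DESeq2 and voom. At an unadjusted p under 0.05 by limma, which 5.16% of all genes reached, the counts were 3 of 9 ligands, 1 of 22 adaptors and regulators, 1 of 14 NF-κB components and 0 of 10 other receptors. Tnfrsf11a was left out of the latter, since both of its groups lay under the minimum.

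**Figure D5:**
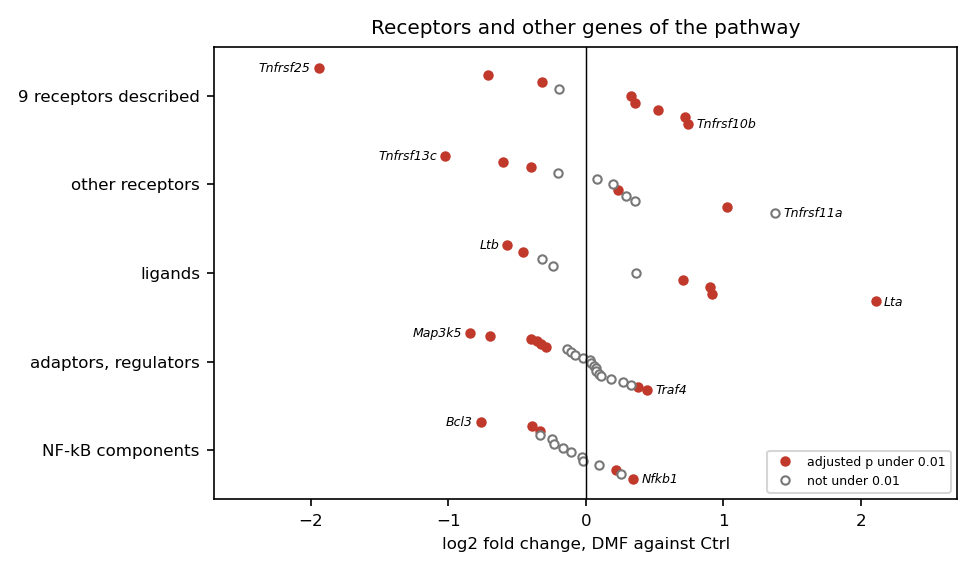
log2 fold change with DMF against Ctrl (x axis) of the 9 receptors and of the other receptors, ligands, adaptors and regulators, and NF-κB components that were tested, 1 point per gene, red where p adj was under 0.01. In each list points lie on both sides of 0, with Lta farthest to the right and Tnfrsf25 farthest to the left.

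The genes with the most similar pattern were listed for the receptor with the largest rise and the one with the largest fall. Tnfrsf10b rose little more than Tnfrsf9 (log2FC 0.75 and 0.72), and within batch 2 the order turned (mean differences 0.56 and 0.68). Over the 9 libraries, which share the 3 groups and 3 replicate numbers, Tnfrsf10b was most like Ccnd2, which encodes cyclin D2 (Pearson r 0.986), followed by Csnk2a2 (0.983), Car12 (0.979), Tes (0.977) and the death receptor gene Tnfrsf21 (0.973). For Tnfrsf25 they were Itga3 (integrin α3, r 0.996), Cerk (0.995), Hadha (0.993), Il1r1, an IL-1 receptor gene (0.991), and Plekho1 (0.987). These correlations describe the pattern of 3 groups in few libraries and were not tested.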

How the data were processed

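Poly(A) RNA-Seq was performed on 9 libraries of murine Tc17 cells, with 3 libraries per group. The authors aligned reads to GRCm38 with STAR 2.4.0b and counted them per gene. The strand setting and the handling of multi-mapped reads are not given in the sources used here. What the authors deposited is a signal and not whole counts, namely reads per gene divided by a library factor. The deposited table also holds columns of the authors' own comparison (mean signal, log2 fold change, test score, p-value and adjusted p), which were not used. Dividing by the smallest step gave whole reads for 100% of the values (tolerance 0.01), and their sums were taken as the depth.

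The test was limma-trend (limma 3.58.1, R 4.3.3) on log2(normalized count + 1) over genes with a mean of at least 10 (11599 of 41388), with group and replicate number in the model and Benjamini-Hochberg adjustment over all genes tested. Replicate numbers come from the labels. After subtraction of group means, libraries of the same number correlated with 0.447 to 0.578 (9 pairs), those of different numbers with -0.471 to -0.0621 (18 pairs). With 3 libraries per group, this subtraction makes the latter negative on average once the former are positive. The negative values are thus not separate support for the pairing. edgeR 4.0.16 on the recovered reads called 3850 genes between DMF and Ctrl. DESeq2 1.42.0, voom, other pseudocounts, minima and scalings, unpaired models, robust eBayes, the 6 compared libraries alone and left-out samples were alternatives. The test was also run on simulated data, but the outcome is not given here and no statement rests on it.

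The receptors and lists were chosen with earlier results of these data known. Named were all 9 receptors, list genes called with DMF (at most 8 per list), ligands of the 9, and the 5 most similar genes to the receptors with the largest rise and fall. Tnfrsf11a was named outside this rule. Markers were named with their cell type. Exon lengths are unions of exons in GENCODE vM21, which held 40254 of the 41388 identifiers. Tables were made with pandas 2.3.3 and NumPy 2.4.6 under Python 3.11.15, and plots with Matplotlib 3.10.9. Results for some genes are not reported here.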

Additional observations from a re-analysis of the deposited data

How the results depend on the processing

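Counts of receptors and genes called depended mostly on the replicate block. Without it but with the batch term, 3 receptors and 834 genes were called between DMF and Ctrl, 1 receptor and 95 genes between DMF + GSH and DMF, and 0 genes between DMF + GSH and Ctrl. With neither block nor batch term the counts were 3 and 583, 0 and 34, and 0. Between DMF + GSH and Ctrl, 23 genes were called with no minimum, 1 after quantile normalization and 5 with DESeq2, as compared to 3.

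When single libraries or whole replicate numbers were left out (12 fits), 6 to 8 receptors and 2702 to 4043 genes were called between DMF and Ctrl, 5 to 8 receptors and 2314 to 3374 genes between DMF + GSH and DMF, and 0 receptors and 0 to 6 genes between DMF + GSH and Ctrl. The count of 5 receptors was found without replicate number 3. For the 8 receptors called, calls were lost in 19 of 200 combinations of receptor and setting for DMF against Ctrl and in 31 of 200 for DMF + GSH against DMF, and 0 reversed. With DESeq2, 7 receptors and 3193 genes were called between DMF and Ctrl, and 6 receptors and 2845 genes between DMF + GSH and DMF. The main model called 3848 and 3391 genes. Over the 12 fits, the p adj of Tnfrsf18 between DMF + GSH and DMF ranged from 0.00167 to 0.0747. In all of these settings, including other pseudocounts, minima and scalings, edgeR, voom and DESeq2, the log2FC of Tnfrsf25 with DMF lay between -2.10 and -1.71 and that of Tnfrsf9 between 0.67 and 0.77. The order of levels per length was the same with the longest annotated transcript. The cause of the differences between settings was not tested.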
